A study of Homo sapiens with 12 samples.

Results

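The noncoding RNAs that carry small RNAs in their introns, the small nucleolar RNA (snoRNA) host genes and the microRNA host genes, were followed upon KMT9α knockdown together with a few lncRNAs known from cancer. Members were all gene symbols of the SNHG series and of the MIR...HG series in the count tables, together with GAS5, MALAT1, NEAT1, ZFAS1, EPB41L4A-AS1, H19, HOTAIR, UCA1 and PVT1, which gave 52 members of 23064 symbols. Of these, 22 are snoRNA hosts, 24 are microRNA hosts and 6 are other lncRNAs. For each symbol the transcript row with the most counts was used.

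The libraries came from 2 established human bladder carcinoma cell lines, CAL-29 and 5637, with 3 RNAseq libraries for the control siRNA siCtrl and 3 for siKMT9α#1 in each line, 12 in all, taken on day 3 after transfection. siKMT9α#1 is directed against N6AMT1, the gene of the catalytic subunit KMT9α of the histone methyltransferase KMT9. It is called si270 in the deposited tables. The reagent and the siRNA concentration differed between the lines and cannot be told apart from the line. Only 1 siRNA against KMT9α was used for these libraries, and nothing in the sources says that libraries of a group came from separate cultures, so p-values measure the spread between these libraries, which may be technical.

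In a snoRNA host gene the exons are spliced into a mostly noncoding RNA, while snoRNAs are trimmed from the excised introns and guide the chemical modification of ribosomal and spliceosomal RNA. Many spliced host RNAs begin with a run of pyrimidines, as the mRNAs of ribosomal proteins do, and are short-lived because translation of a short reading frame exposes them to nonsense-mediated decay (NMD). In a microRNA host gene the hairpin is cut out of the primary transcript by the nuclear Microprocessor, which contains the nuclease DROSHA, so the host RNA measures the precursor and not the mature microRNA.

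The starts of the snoRNA host genes are shown because several hosts share a sequence feature there that the choice of members did not use. Each line gives bases from 10 before to 20 from the first transcribed base on, by RefSeq on GRCh38.p14, with capitals for the unbroken run of C and T that begins at the first transcribed base.
SNHG12 (chr1:28581854-28581883, minus strand): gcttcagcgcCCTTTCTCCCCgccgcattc
SNHG18 (chr5:9546190-9546219, plus strand): gccgcgccgcCTCCTCCTCCTCCTCCTCCC
SNHG4 (chr5:139274091-139274120, plus strand): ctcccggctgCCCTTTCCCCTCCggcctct
SNHG32 (chr6:31834906-31834935, plus strand): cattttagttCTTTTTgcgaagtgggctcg
SNHG5 (chr6:85678714-85678743, minus strand): gcacttcggtCTTTTacgtcggccttcgcg
ZFAS1 (chr20:49278632-49278661, plus strand): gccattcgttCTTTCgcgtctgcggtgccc
SNHG7 (chr9:136728165-136728194, minus strand): ccttctcgtcCTCTgcgtgcgccggaggct
SNHG1 (chr11:62855866-62855895, minus strand): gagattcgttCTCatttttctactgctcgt
SNHG29 (chr17:16438977-16439006, plus strand): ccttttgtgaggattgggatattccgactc
The first base was C and the run was at least 4 bases long in the first 7 of these. That is 7 of the 19 snoRNA hosts with a start in the RefSeq table (36.8%), against 8.92% of 11632 tested genes with a start. It was found in 0 of 19 microRNA hosts. SNHG1 had a run of 3, and SNHG29 and GAS5 had no pyrimidine at the RefSeq start. The feature was searched after the sequences had been looked at, and an annotated start need not be the one used in these cells.

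The mature microRNAs below belong to the 2 microRNA hosts that changed, and to 3 tested hosts whose microRNAs share the let-7 seed, with bases 2 to 8, the seed, in capitals (RefSeq, GRCh38.p14).
hsa-miR-22-3p: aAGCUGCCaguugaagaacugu
hsa-miR-22-5p: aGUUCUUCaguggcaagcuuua
hsa-miR-1915-3p: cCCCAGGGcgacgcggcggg
hsa-miR-1915-5p: aCCUUGCCuugcugcccgggcc
hsa-let-7a-5p: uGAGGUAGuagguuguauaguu
hsa-let-7b-5p: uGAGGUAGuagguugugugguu
hsa-miR-4458: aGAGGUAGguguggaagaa
MIR22HG holds miR-22 and MIR1915HG holds miR-1915, and these do not share a seed. The seed GAGGUAG is carried by let-7a from MIR100HG and MIRLET7BHG, by let-7b from MIRLET7BHG and by miR-4458 from MIR4458HG. It is also carried by let-7c from MIR99AHG and by miR-4500 from MIR4500HG, 2 hosts that were tested in neither line.

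The libraries held between 24479348.5 and 35151256.5 estimated counts. Levels are given as CPM, counts scaled to a common library size of 1e6 by the trimmed mean of M-values (TMM). N6AMT1, the target of the siRNA, had 11.4, 10.2 and 9.68 CPM with siCtrl and 2.82, 2.93 and 1.99 CPM with siKMT9α#1 in CAL-29 cells. In 5637 cells N6AMT1 had 13.4, 13.2 and 13.3 CPM with siCtrl and 3.75, 2.21 and 2.56 CPM with siKMT9α#1, so that it fell in both lines, to 0.251 and 0.213 of the control level (adjusted p = 1.33e-10 and 1.05e-15, edgeR). Of 12 epithelial and urothelial markers, 8 were downregulated in each line and 1, TP63, was upregulated in 5637 cells. The summed level of these markers went from between 13630 and 14290 CPM to between 6613 and 6761 CPM in CAL-29 cells, and from between 8785 and 9212 CPM to between 6076 and 6290 CPM in 5637 cells. Markers of other cell types were low, with a summed level of at most 3.34 CPM for the 4 immune markers and 2.87 CPM for the 4 fibroblast markers in any library, and DCN, CD3E and PECAM1 had at most 4 counts in a library. The summed level of 3 endothelial markers went from between 1.60 and 1.84 CPM to between 4.15 and 4.63 CPM in CAL-29 cells and from between 1.46 and 1.70 CPM to between 0.480 and 0.843 CPM in 5637 cells, and CDH5 was the one of them called, up in the former line and down in the latter. The part of all these markers in the results below was not tested, and in bulk libraries fewer cells of a kind cannot be told apart from less RNA per cell.

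The first siCtrl library of CAL-29 cells stood apart from the other two. The chi-square of its counts per degree of freedom over genes was 8.17 against siCtrl replicate 2 and 12.3 against replicate 3, while every other pair of libraries of a group lay between 2.25 and 4.0. Without this library 14 members rose and 3 fell in CAL-29 cells at the threshold given below, in place of 13 and 2. SNHG1 (log2 fold change 0.40, up) and MALAT1 (-0.52, down) were the calls added. The response of 24 members in place of 22 then differed between the lines, and the siCtrl level of 22 in place of 24.

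Upon KMT9α knockdown, 13 of 21 tested snoRNA hosts rose in CAL-29 cells and 15 of 22 in 5637 cells, and none fell at the threshold used. At the threshold of the study, an unadjusted p below 1e-06 in edgeR's quasi-likelihood test within a line, CAL-29 cells had 13 of 38 tested members that rose and 2 that fell, where 15% of 14673 genes tested rose and 15% fell. In 5637 cells 17 of 43 members tested rose and 1 fell, where 18% of 14335 genes rose and 17.6% fell. All 13 that rose in CAL-29 cells and 15 of the 17 that rose in 5637 cells were snoRNA hosts. At an adjusted p below 0.05, 17 members were higher and 10 lower in CAL-29 cells, beside 34.3% and 35.2% of all genes. By the same measure 27 were higher and 5 lower in 5637 cells, beside 35.1% and 35.6%. Of the snoRNA hosts, 15 were higher and 3 lower by this measure in the former line, and 17 and 1 in the latter.

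**Figure D1:**
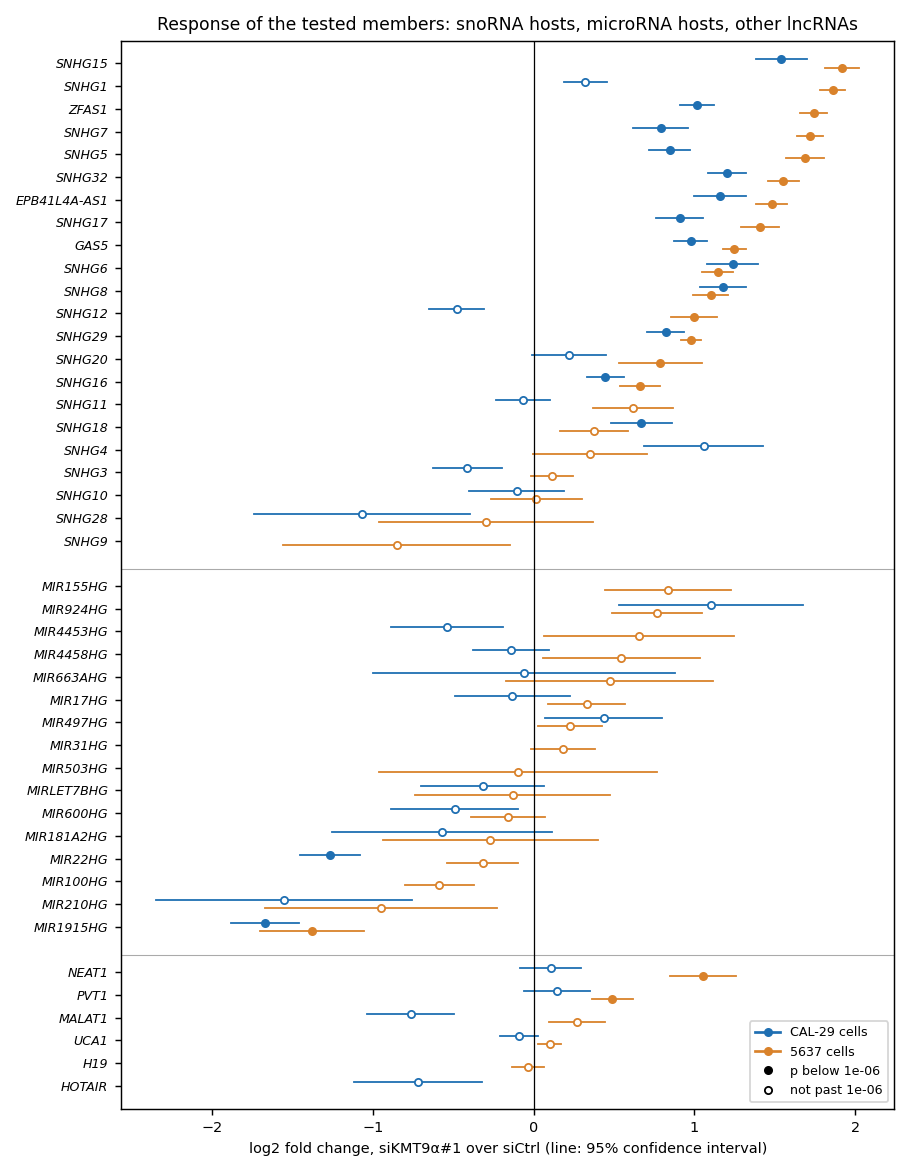
Log2 fold change of siKMT9α#1 over siCtrl (x axis) for each member tested in at least 1 line (y axis), in CAL-29 cells (blue) and 5637 cells (orange), in blocks of snoRNA hosts, microRNA hosts and other lncRNAs. Lines are 95% confidence intervals and filled points passed an unadjusted p below 1e-06. The snoRNA hosts that passed all lie right of 0, whereas MIR22HG and MIR1915HG lie left of it.

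The median log2 fold change of the snoRNA hosts was 0.82 over the 21 of CAL-29 cells that were tested and 1.05 over the 22 of 5637 cells. The median over all genes tested was -0.02 and -0.01. All 52 members together made up 0.167% to 0.181% of the counts in the siCtrl libraries of CAL-29 cells and 0.261% to 0.268% in the siKMT9α#1 libraries. In 5637 cells their share was 0.188% to 0.196% with siCtrl and 0.389% to 0.407% with siKMT9α#1. Thus their share of the library was higher in each knockdown library than in every control library of the line.

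In both lines, 12 of the 22 snoRNA hosts rose, between 1.36 and 2.91-fold in CAL-29 cells and between 1.58 and 3.78-fold in 5637 cells. Of 13674 genes tested in both lines, 8.45% rose in both. The 12 hosts were GAS5, ZFAS1, EPB41L4A-AS1, SNHG5, SNHG6, SNHG7, SNHG8, SNHG15, SNHG16, SNHG17, SNHG29 and SNHG32. At least 2-fold was reached by 6 of these 12 in CAL-29 cells and by 10 in 5637 cells. Of all tested snoRNA hosts, 6 of 21 (CAL-29) and 11 of 22 (5637) passed the threshold with a rise of at least 2-fold. Among all genes tested 3.71% and 1.9% did so. SNHG18 passed the threshold in CAL-29 cells alone, and SNHG1, SNHG12 and SNHG20 in 5637 cells alone.

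**Figure D2:**
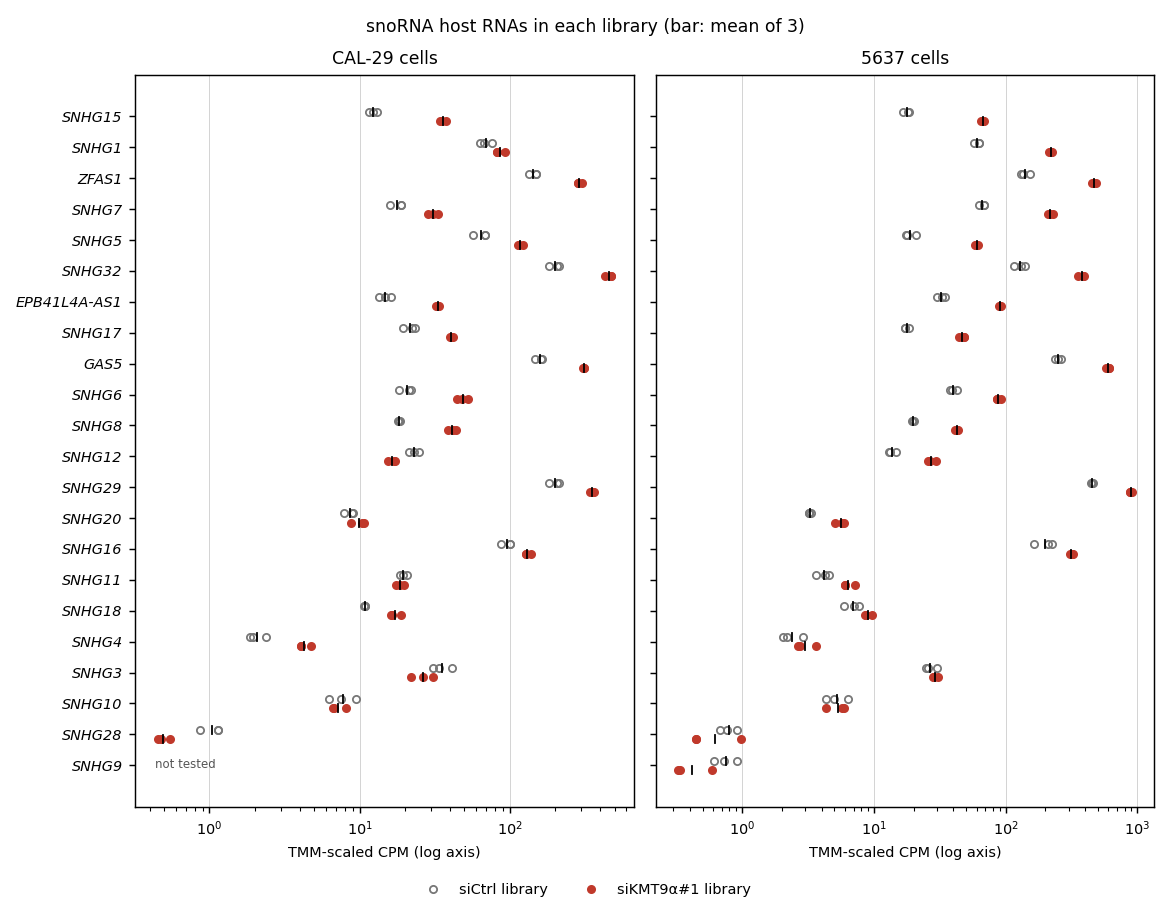
TMM-scaled CPM (log axis) of the 22 snoRNA hosts in each library of CAL-29 cells (left) and 5637 cells (right), with open circles for siCtrl, filled circles for siKMT9α#1 and bars for the mean of 3. Rows are ordered by the fold change in 5637 cells. For the upper 11 hosts the 2 groups of libraries are apart in both lines, while SNHG12 is lower with siKMT9α#1 in CAL-29 cells and higher in 5637 cells.

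GAS5 (growth arrest specific) hosts 11 annotated snoRNAs, the most of any member, and lies on chr1:173827697-173838020 (GRCh37, minus strand). Its level in CAL-29 cells was 148, 164 and 163 CPM in the siCtrl libraries and 312, 309.5 and 311 CPM in the siKMT9α#1 libraries. In 5637 cells it was 238, 264 and 250.5 CPM in the siCtrl libraries and 575, 603 and 607 CPM in the siKMT9α#1 libraries. All knockdown libraries lay above all control libraries, at 1.97-fold in CAL-29 cells (log2 0.98 ± 0.049 SE, adjusted p = 3.01e-13, edgeR) and 2.38-fold in 5637 cells (log2 1.25 ± 0.0354, adjusted p = 1.53e-22, edgeR).

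ZFAS1, which hosts the SNORD12 family and starts beside ZNFX1, had 134, 149 and 149 CPM with siCtrl and 286, 303 and 285 CPM with siKMT9α#1 in CAL-29 cells. It had 132, 152 and 135 CPM with siCtrl and 453, 483 and 464 CPM with siKMT9α#1 in 5637 cells. Its level with siCtrl was alike in the lines, but the rise was 2.02-fold in CAL-29 cells and 3.35-fold in 5637 cells, with adjusted p of 2.95e-13 and 1.88e-24 (edgeR). EPB41L4A-AS1, host of SNORA13, measured 13.5, 16.2 and 14.9 CPM with siCtrl and 33.3, 34 and 32.3 CPM with siKMT9α#1 in CAL-29 cells. In 5637 cells the values were 32.8, 34.3 and 30 CPM with siCtrl and 88.6, 91.9 and 90.5 CPM with siKMT9α#1. The groups did not overlap in either line, with a rise of 2.23-fold and 2.79-fold. Such separate groups were seen for 72.3% (CAL-29) and 72.4% (5637) of all genes tested.

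The largest rise of a member in either line was that of SNHG15, the host of SNORA9. SNHG15 had 12.3, 13.2 and 11.6 CPM with siCtrl and 37.8, 35.7 and 34.5 CPM with siKMT9α#1 in CAL-29 cells. It had 16.7, 18.3 and 18.3 CPM with siCtrl and 65.3, 68.4 and 67.8 CPM with siKMT9α#1 in 5637 cells. This is 2.91-fold (log2 1.54 ± 0.0756 SE) and 3.78-fold (log2 1.92 ± 0.052 SE), with groups far apart in both lines.

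SNHG29 and SNHG32 host box C/D snoRNAs. SNHG29, host of SNORD49A, SNORD49B and SNORD65, had 184, 206 and 213 CPM with siCtrl and 342, 364 and 358 CPM with siKMT9α#1 in CAL-29 cells. The values in 5637 cells were 442, 463 and 449 CPM with siCtrl and 881, 904 and 885 CPM with siKMT9α#1. Its rise was close in the lines, 1.76-fold and 1.97-fold. SNHG32, host of SNORD48 and SNORD52, had 182, 206 and 212 CPM with siCtrl and 435, 473 and 475 CPM with siKMT9α#1 in CAL-29 cells. In 5637 cells SNHG32 had 116, 139 and 130.1 CPM with siCtrl and 353, 394 and 383 CPM with siKMT9α#1. It rose 2.3-fold and 2.93-fold, so that every knockdown library held more than any control library. The row of SNHG32 carries a RefSeq identifier of a coding transcript. Of its exon bases, 23.2% overlap a further gene on the same strand, whose reads may enter the count.

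SNHG5, host of SNORD50A and SNORD50B, had 57.4, 68.5 and 68.9 CPM with siCtrl and 113, 122 and 116 CPM with siKMT9α#1 in CAL-29 cells. In 5637 cells SNHG5 had 17.4, 20.9 and 17.8 CPM with siCtrl and 58.5, 59.9 and 61.8 CPM with siKMT9α#1. It was lower with siCtrl in 5637 cells than in CAL-29 cells and rose 3.22-fold there, against 1.8-fold in CAL-29 cells. Of the exon bases of SNHG5, 13.2% overlap other genes on the same strand. SNHG7, host of SNORA17A and SNORA17B, had 18.8, 18.9 and 16 CPM with siCtrl and 30.9, 33.1 and 28.5 CPM with siKMT9α#1 in CAL-29 cells. For 5637 cells the values of SNHG7 were 62.7, 68.2 and 68.1 CPM with siCtrl and 210.4, 227 and 216 CPM with siKMT9α#1. Here the level was higher in 5637 cells and so was the rise, 3.29-fold against 1.73-fold.

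SNHG6, which hosts SNORD87, and SNHG8, which hosts SNORA24, rose at least 2-fold in both lines. SNHG6 had 18.4, 21.4 and 22.1 CPM with siCtrl and 44.9, 52.8 and 48.4 CPM with siKMT9α#1 in CAL-29 cells. It had 37.7, 43 and 38.9 CPM with siCtrl and 86.6, 91.6 and 85.9 CPM with siKMT9α#1 in 5637 cells. The rise of SNHG6 was 2.36-fold and 2.21-fold. SNHG8 had 18, 18.7 and 18.3 CPM with siCtrl and 38.6, 44.2 and 41.7 CPM with siKMT9α#1 in CAL-29 cells. It had 19.4, 20.3 and 19.8 CPM with siCtrl and 42.6, 43.3 and 41.4 CPM with siKMT9α#1 in 5637 cells. For SNHG8 the rise was 2.26-fold and 2.14-fold, and for both RNAs the groups did not overlap.

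SNHG17 hosts 4 snoRNAs of the SNORA71 family, and SNHG16 hosts 3 of the SNORD1 family. SNHG17 had 22.4, 23.4 and 19.6 CPM with siCtrl and 41.8, 40.6 and 40.1 CPM with siKMT9α#1 in CAL-29 cells. It had 18.5, 17.3 and 17.2 CPM with siCtrl and 48.5, 48.5 and 43.9 CPM with siKMT9α#1 in 5637 cells, a rise of 1.88-fold and 2.65-fold. SNHG16 had 87.8, 100 and 101 CPM with siCtrl and 128, 128 and 138 CPM with siKMT9α#1 in CAL-29 cells. It had 163, 210.0 and 224 CPM with siCtrl and 316, 323 and 305 CPM with siKMT9α#1 in 5637 cells. With 1.36-fold and 1.58-fold, SNHG16 had the smallest rise of the 12 hosts, and in CAL-29 cells it missed the threshold, at a log2 fold change of 0.48, without siCtrl replicate 2 and, at 0.41, without siKMT9α#1 replicate 3.

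SNHG1 and SNHG12 set the lines apart. SNHG1, which hosts 8 snoRNAs of the SNORD22 to SNORD31 series and lies on chr11:62619450-62623425 (GRCh37, minus strand), had 76.2, 67.5 and 63.4 CPM with siCtrl and 93.6, 82 and 82.8 CPM with siKMT9α#1 in CAL-29 cells. In 5637 cells SNHG1 had 62.2, 62.3 and 57.2 CPM with siCtrl and 214, 225 and 219 CPM with siKMT9α#1. It stood at 1.25-fold in CAL-29 cells (log2 0.32 ± 0.0645 SE), where it did not pass the threshold, and rose 3.63-fold in 5637 cells (log2 1.86 ± 0.0386 SE). SNHG12, host of SNORD99 and of 3 H/ACA snoRNAs on chr1:28905050-28909644 (GRCh37, minus strand), had 24.9, 23.1 and 21.2 CPM with siCtrl and 17.3, 15.4 and 17 CPM with siKMT9α#1 in CAL-29 cells. In 5637 cells SNHG12 had 14.6, 13.2 and 13 CPM with siCtrl and 26.5, 29.4 and 25.5 CPM with siKMT9α#1. All knockdown libraries were below all controls in CAL-29 cells, without passing the threshold (log2 -0.48 ± 0.0823 SE, adjusted p = 2.84e-05, edgeR), and above them in 5637 cells (2-fold). Without a filter on low counts, SNHG1 and SNHG12 both passed in CAL-29 cells, in these directions. With DESeq2 SNHG1 did not pass there (log2 fold change 0.33), whereas SNHG12 passed downwards, at -0.47. SNHG12 was then called down in CAL-29 cells and up in 5637 cells.

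SNHG18 and SNHG20 were called less firmly. SNHG18, host of SNORD123, had 10.8, 10.9 and 10.7 CPM with siCtrl and 16.6, 16.2 and 19 CPM with siKMT9α#1 in CAL-29 cells. It had 5.95, 7 and 7.69 CPM with siCtrl and 8.73, 9.6 and 8.53 CPM with siKMT9α#1 in 5637 cells. The groups did not overlap in either line (1.59-fold and 1.3-fold), but only CAL-29 cells passed the threshold, and there the call was lost, at log2 fold changes of 0.60 to 0.72, when any library except siCtrl replicate 1 was left out. SNHG20, host of SCARNA16, had 9.06, 7.93 and 8.85 CPM with siCtrl and 10.7, 10.4 and 8.83 CPM with siKMT9α#1 in CAL-29 cells. It had 3.31, 3.21 and 3.2 CPM with siCtrl and 5.1, 5.76 and 5.91 CPM with siKMT9α#1 in 5637 cells. Its rise in 5637 cells (1.73-fold) stood just past the threshold, and the call was lost without any 1 library except siKMT9α#1 replicate 1, at log2 fold changes of 0.75 to 0.81. It was also lost with scaling by total counts (0.73) or by the upper quartile (0.75), with a minimum of 10 counts in every library (0.78) and with every row as its own feature (0.79).

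The 6 snoRNA hosts that passed the threshold in neither line were SNHG3, SNHG4, SNHG9, SNHG10, SNHG11 and SNHG28. Their log2 fold changes lay between -1.07 and 1.06 in CAL-29 cells, where SNHG9, host of SNORA78, had at most 6.5 counts and was not tested, and between -0.85 and 0.62 in 5637 cells. SNHG4, in which 14% of the exon bases overlap MATR3 on the same strand, had a log2 fold change of 1.06 ± 0.177 (SE) in CAL-29 cells on at most 146.5 counts in a library. For SNHG28, 90.8% of the exon bases lie in VSIG8 or a further gene of the same strand, so its reads cannot be told apart from theirs. The row of SNHG28 also carries a RefSeq identifier of a coding transcript. SNHG3, which hosts SNORA73A and SNORA73B, had overlapping groups in both lines.

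The counting was done with the default settings of its tool. Which strand these count, and whether they count introns with exons, is not given in the sources used here. Reads of genes on the other strand may thus enter a count. By GENCODE, exons on the other strand overlap 58.9% of the exon bases of SNHG6 (MCMDC2), 51.2% of EPB41L4A-AS1 (EPB41L4A), 37.6% of SNHG8 (PRSS12) and 30.3% of SNHG7 (DIPK1B). In GAS5 it was 7.7%, and SNHG1, SNHG15, SNHG17 and SNHG18 had no such overlap. Hosts with and without such overlap were among the upregulated RNAs, and the part of such reads in the rises was not tested. All shares of exon bases given for members join the exons of every GENCODE transcript of a gene. They may therefore differ from the overlap of the transcript row that was counted.

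The snoRNAs themselves lie in the introns. Of 57 snoRNAs that RefSeq places within members, 52 have a row of their own in the tables, and 29 of these reached a mean of at least 10 counts in a group. Such a row counts any read over the snoRNA, from the mature snoRNA, the intron or an unspliced precursor, and mature snoRNAs are shorter than the fragments of common RNAseq libraries. Their counts were summed per host and compared with the host row, as a description with no test. Whether a host row counts exons alone or introns too is not given in the sources. A host row may therefore also hold reads of its introns and snoRNAs.

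The 10 snoRNA rows in GAS5 together had 13.9, 12.9 and 10.2 CPM with siCtrl and 8.32, 7.08 and 6.54 CPM with siKMT9α#1 in CAL-29 cells. In 5637 cells they had 7.16, 5.11 and 5.01 CPM with siCtrl and 4.07, 4.26 and 3.99 CPM with siKMT9α#1. The GAS5 host row was 1.97-fold and 2.38-fold higher. The snoRNA rows were lower in all knockdown libraries, at 0.593 and 0.713 of the control mean. SNORD76, SNORD47, SNORD79 and SNORD80 held most of these counts. The 8 rows in SNHG1 had 7.49, 6.41 and 5.92 CPM with siCtrl and 5.13, 4 and 4.24 CPM with siKMT9α#1 in CAL-29 cells. They had 5.57, 4.06 and 3.58 CPM with siCtrl and 5.36, 4.26 and 4.51 CPM with siKMT9α#1 in 5637 cells. Against a host row that stood at 1.25-fold and 3.63-fold, these rows stood at 0.674 and 1.07 of the control mean.

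In CAL-29 cells 10 hosts had snoRNA rows with at least 10 counts on average, and the rows of all 10 were at a lower mean with siKMT9α#1, with 3 of them (GAS5, SNHG1 and SNHG12) below every control library. Separate groups, in either direction, were seen for 72.3% of all genes tested in CAL-29 cells. In 5637 cells there were 7 such hosts, 3 with a lower mean. The ratio of the snoRNA rows was below that of the host row in 10 of 10 hosts in CAL-29 cells and in 6 of 7 in 5637 cells. The exception in 5637 cells was SNHG10, with a ratio of 1.09 beside a host at 1.01-fold. The rows in SNHG29 came nearest to a host that rose in 5637 cells, with 6.24, 5.49 and 6.21 CPM with siCtrl and 10.3, 10.2 and 10 CPM with siKMT9α#1. That is 1.7-fold, and SNORD49B alone made most of it. Summed over all 52 rows, the libraries of CAL-29 cells held 42.1, 38.0 and 30.9 CPM with siCtrl and 27.4, 23.4 and 23.9 CPM with siKMT9α#1, and those of 5637 cells 24.8, 19.5 and 20.2 CPM with siCtrl and 25.5, 24.7 and 23.2 CPM with siKMT9α#1. The groups were apart in CAL-29 cells and overlapped in 5637 cells. The highest value of CAL-29 cells is that of siCtrl replicate 1, the library that stood apart, and the other two control libraries also lay above all knockdown libraries.

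**Figure D3:**
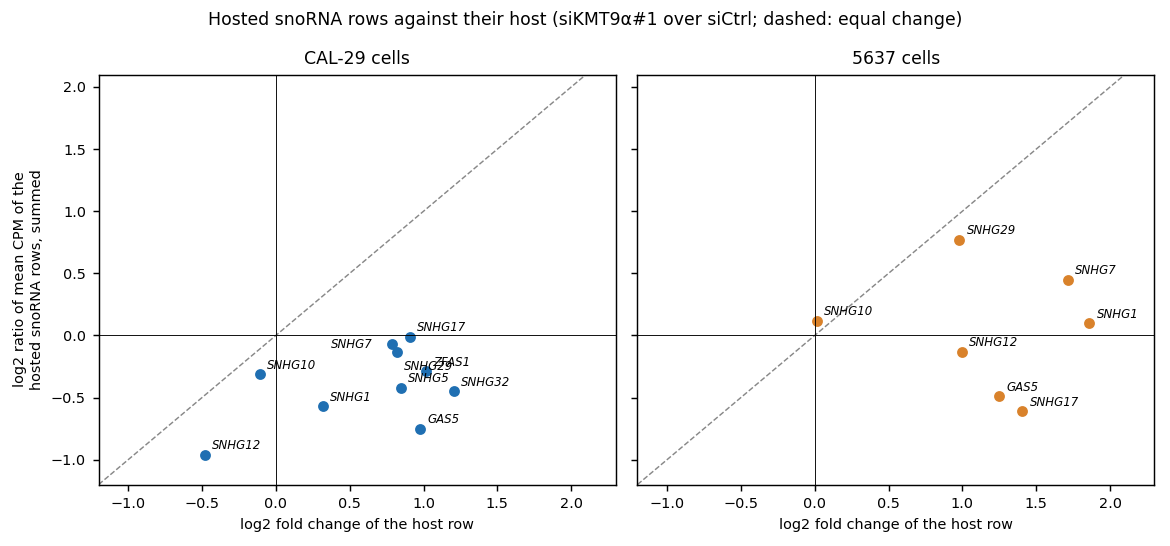
Log2 ratio of the mean CPM of the snoRNA rows of a host, summed (y axis), against the log2 fold change of the host row (x axis), siKMT9α#1 over siCtrl, for 10 hosts in CAL-29 cells and 7 in 5637 cells with at least 10 snoRNA counts on average. The dashed line marks an equal change, and all points but SNHG10 in 5637 cells lie below it.

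Most microRNA hosts passed the threshold in neither direction. CAL-29 cells allowed a test of 12 of the 24 and 5637 cells of 16, and none rose at p below 1e-06. The other hosts had few or no counts, with at most 11 in CAL-29 cells and 5 in 5637 cells in any library. MIR22HG and MIR1915HG fell in CAL-29 cells, and MIR1915HG in 5637 cells, so 2 of 12 (CAL-29) and 1 of 16 (5637) fell where 15% and 17.6% of all genes did. At an adjusted p below 0.05 (edgeR) 2 were higher and 5 lower in CAL-29 cells, beside 34.3% and 35.2% of all genes tested. In 5637 cells 6 were higher and 4 lower, beside 35.1% and 35.6%. The median was -0.40 in the former line and 0.04 in the latter, as log2 fold changes of those tested.

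MIR1915HG lies on chr10:21779201-21786189 (GRCh37, minus strand), and its row carries a RefSeq identifier of a coding transcript. It had 26.3, 24.6 and 29.3 CPM with siCtrl and 8.31, 7.29 and 9.78 CPM with siKMT9α#1 in CAL-29 cells. It had 4.91, 4.5 and 4.68 CPM with siCtrl and 1.39, 2.14 and 1.87 CPM with siKMT9α#1 in 5637 cells. The fall was by 1.67 on the log2 scale in CAL-29 cells (SE 0.101, adjusted p = 6.67e-12, edgeR) and by 1.38 in 5637 cells (adjusted p = 7.67e-09, edgeR), and it was the only member downregulated in both lines, beside 8.49% of all genes tested in both. No member changed in opposite directions in this test, beside 1.76% of all genes. However, SNHG12 did under the alternatives given above, and MALAT1 did without a filter on low counts. MIR22HG, which lies on chr17:1614741-1620468 (GRCh37, minus strand), had 52.5, 45.2 and 39.2 CPM with siCtrl and 20.6, 18 and 18.1 CPM with siKMT9α#1 in CAL-29 cells. It had 8.49, 8.25 and 7.35 CPM with siCtrl and 7.31, 5.54 and 6.47 CPM with siKMT9α#1 in 5637 cells. It fell by 1.27 on the log2 scale in CAL-29 cells, to 0.415 of the control level. In 5637 cells, where its level was lower from the start, the log2 fold change of -0.32 ± 0.108 (SE) did not pass the threshold.

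Only 4 of the 44 microRNA rows within members reached a mean of 10 counts in a group. The MIR22 row, one of these, had a mean of 15.7 counts with siCtrl and 10.5 with siKMT9α#1 (CAL-29), and of 6.2 and 6.5 (5637). The MIR1915 row had a mean of 5.0 and 0.2 counts (CAL-29), and of 0.3 and 0.0 (5637). No test was made of these rows. Of the 3 tested hosts of microRNAs with the let-7 seed, MIR100HG had a log2 fold change of -0.59 ± 0.105 (SE) in 5637 cells and at most 8.5 counts in CAL-29 cells. MIRLET7BHG stood at -0.32 ± 0.183 and -0.13 ± 0.296, and MIR4458HG at -0.14 ± 0.114 and 0.55 ± 0.238, in CAL-29 and 5637 cells. None of the 3 passed the threshold in either line.

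Of the remaining microRNA hosts, MIR210HG, which holds the hypoxia-related miR-210, stood at a log2 fold change of -1.55 ± 0.382 (SE) in CAL-29 cells and -0.95 ± 0.352 in 5637 cells on at most 38.5 counts. MIR924HG stood at 1.10 ± 0.274 and 0.77 ± 0.137, and MIR155HG, the precursor of miR-155, at 0.84 ± 0.192 in 5637 cells. MIR17HG, the precursor of the cluster from miR-17 to miR-92a, stood at -0.13 ± 0.172 and 0.33 ± 0.116. These 4 hosts did not pass the threshold either. The others tested in at least 1 line were MIR31HG, MIR181A2HG, MIR4453HG, MIR497HG, MIR503HG, MIR600HG and MIR663AHG, whose log2 fold changes ran from -0.57 to 0.43 (CAL-29) and from -0.27 to 0.66 (5637). The microRNA hosts tested in neither line were MIR181A1HG, MIR2052HG, MIR3945HG, MIR3976HG, MIR4290HG, MIR4500HG, MIR4697HG and MIR99AHG.

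**Figure D4:**
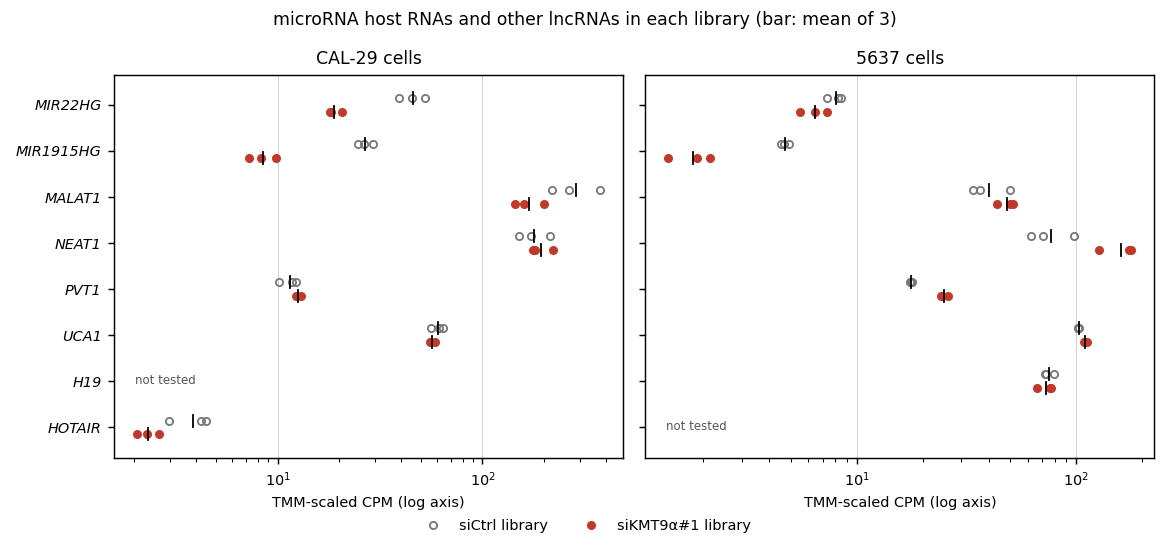
TMM-scaled CPM (log axis) of 2 microRNA hosts and 6 other lncRNAs in each library of CAL-29 cells (left) and 5637 cells (right), with open circles for siCtrl, filled circles for siKMT9α#1 and bars for the mean of 3. MIR1915HG is lower with siKMT9α#1 in both lines, whereas NEAT1 is higher in 5637 cells only and overlaps in CAL-29 cells.

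NEAT1, the RNA scaffold of nuclear paraspeckles, and MALAT1, an abundant RNA of nuclear speckles, are encoded side by side on chromosome 11. NEAT1 was counted in 1 transcript row, so its short and long transcripts were not told apart. NEAT1 had 214, 172 and 151 CPM with siCtrl and 221, 177 and 179.8 CPM with siKMT9α#1 in CAL-29 cells. It had 98.2, 70.2 and 62.6 CPM with siCtrl and 178, 174 and 128 CPM with siKMT9α#1 in 5637 cells. The groups overlapped in CAL-29 cells (log2 0.10 ± 0.092 SE, 95% confidence interval -0.09 to 0.30) and were apart in 5637 cells, where NEAT1 rose 2.07-fold. With DESeq2, NEAT1 missed the threshold in 5637 cells at a log2 fold change of 1.06.

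MALAT1 had 376, 265 and 218 CPM with siCtrl and 200.1, 159.5 and 145 CPM with siKMT9α#1 in CAL-29 cells. It had 50, 33.9 and 36.5 CPM with siCtrl and 51.6, 50.1 and 43.5 CPM with siKMT9α#1 in 5637 cells. In CAL-29 cells all knockdown libraries lay below all controls, at 0.588 of the control level, without passing the threshold (adjusted p = 2.42e-05, edgeR). It passed there, downwards, without a filter on low counts and when siCtrl replicate 1 or 3 was left out, at log2 fold changes of -0.76, -0.52 and -0.92. In 5637 cells the groups overlapped (log2 0.27 ± 0.085 SE), and MALAT1 passed upwards without a filter on low counts and, at 0.45, without siCtrl replicate 1. With DESeq2 MALAT1 passed in neither line, at log2 fold changes of -0.76 (CAL-29) and 0.27 (5637). Leaving out any other library gave no call of MALAT1. The fit without a filter called more members, 20 in place of 15 (CAL-29) and 22 in place of 18 (5637). For MALAT1, 83.7% of the exon bases overlap genes on the other strand, among them TALAM1.

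PVT1, which lies next to the oncogene MYC, had 12.3, 11.8 and 10.2 CPM with siCtrl and 13.1, 12.3 and 12.5 CPM with siKMT9α#1 in CAL-29 cells. It had 17.6, 17.9 and 17.7 CPM with siCtrl and 24.1, 26 and 24.6 CPM with siKMT9α#1 in 5637 cells. PVT1 rose 1.4-fold in 5637 cells and stood at 1.11-fold in CAL-29 cells without passing the threshold. MYC rose in both lines, with log2 fold changes of 0.70 ± 0.0488 (SE) and 0.56 ± 0.0346. UCA1, an lncRNA named for urothelial carcinoma, had 61.5, 64.2 and 56.2 CPM with siCtrl and 56, 58.8 and 55.5 CPM with siKMT9α#1 in CAL-29 cells. It had 103, 102 and 102 CPM with siCtrl and 109.5, 108 and 112 CPM with siKMT9α#1 in 5637 cells. Its log2 fold change was -0.09 (95% confidence interval -0.21 to 0.03) in CAL-29 cells and 0.10 (0.03 to 0.17) in 5637 cells, where the groups were apart without passing the threshold.

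H19 and HOTAIR were each found in only 1 of the lines at a level that could be tested. H19, an imprinted lncRNA that holds miR-675, had 72.2, 79.2 and 73.2 CPM with siCtrl and 76, 76.9 and 66.4 CPM with siKMT9α#1 in 5637 cells. In CAL-29 cells it had 3, 0 and 1 counts with siCtrl and 3, 20 and 2.5 counts with siKMT9α#1. Its groups overlapped in 5637 cells (log2 -0.03 ± 0.0486 SE), while the neighbouring imprinted gene IGF2 fell by 1.14 on the log2 scale there and stood at 0.06 ± 0.0704 in CAL-29 cells. HOTAIR, from the HOXC cluster, had 4.24, 4.46 and 2.95 CPM with siCtrl and 2.63, 2.32 and 2.07 CPM with siKMT9α#1 in CAL-29 cells. Only 1, 4 and 4 counts with siCtrl and 0, 2 and 2 counts with siKMT9α#1 were found in 5637 cells. The knockdown libraries of CAL-29 cells lay below the controls without passing the threshold (log2 -0.72 ± 0.192 SE). HOXC13 fell in CAL-29 cells (log2 -0.59 ± 0.06 SE), HOXC10, HOXC11 and HOXC12 did not pass, and all 4 genes had at most 5 counts in a library of 5637 cells.

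To see whether the response differed between the lines, the interaction of line and siRNA was tested over all 12 libraries. At an adjusted p below 0.05, 20 of 44 members had a higher log2 fold change in 5637 cells and 2 (SNHG4 and H19) a lower one, beside 50.4% of all genes tested that differed in either direction. At an unadjusted p below 1e-06 in this test 5 members differed, beside 15.7% of all genes. With scaling by total counts, which moves the median difference of all genes from -0.04 to -0.16, the split was 15 higher and 5 lower. Of the 12 snoRNA hosts that rose in both lines, 8 rose more in 5637 cells by this test. The share of all genes was taken for both directions together (50.4%). These counts by direction thus have no such share beside them. For the other 4 the test was not passed, and the 95% confidence interval of the difference was -0.30 to 0.08 for SNHG6, -0.27 to 0.08 for SNHG8, -0.01 to 0.41 for SNHG16 and 0.01 to 0.28 for SNHG29.

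The difference was largest for SNHG1, at 1.52 ± 0.0791 (SE) on the log2 scale (adjusted p = 1.7e-15, edgeR), and for SNHG12, at 1.46 ± 0.11 (adjusted p = 4.83e-12, edgeR). SNHG7 differed by 0.91 ± 0.0855, SNHG5 by 0.82 ± 0.0904 and ZFAS1 by 0.71 ± 0.0701. Outside the snoRNA hosts, MALAT1 differed by 1.02 ± 0.193, NEAT1 by 0.93 ± 0.172 and MIR22HG by 0.93 ± 0.15. GAS5 differed by 0.25 ± 0.0632 and EPB41L4A-AS1 by 0.31 ± 0.0875, and for both the difference was no longer called with scaling by total counts, at 0.14 and 0.19.

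The level with siCtrl differed at least 2-fold between the lines for 24 of 44 members, beside 39.4% of all genes tested, with 13 higher in 5637 cells and 11 higher in CAL-29 cells. Without the 2-fold minimum it was 37 members, beside 85.4%. Some of these members had almost no counts in one line, and for them no fold is given. H19 had 3, 0 and 1 counts in the siCtrl libraries of CAL-29 cells and 74.8 CPM on average in 5637 cells, and MIR155HG had 1 count in each of the former and 1.38 CPM in the latter. HOTAIR had 3.88 CPM on average in CAL-29 cells and 1, 4 and 4 counts in 5637 cells. MIR31HG had no count in any CAL-29 library and 8.61 CPM on average in 5637 cells with siCtrl, so that it was at least 70-fold higher there, with 3 counts per library as the floor of CAL-29 cells. MIR100HG was 30.1-fold higher in 5637 cells, on 8.5, 5.5 and 6 counts in CAL-29 cells. In the other direction, MALAT1 was 6.8-fold, MIR1915HG 5.43-fold and MIR22HG 5.42-fold higher in CAL-29 cells. Among the snoRNA hosts that rose in both lines, SNHG7 was 3.89-fold higher in 5637 cells and SNHG5 3.32-fold higher in CAL-29 cells, while ZFAS1 differed by 0.02 on the log2 scale (95% confidence interval -0.08 to 0.13).

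Other genes that act on these RNAs were read from the same fits, and their counts stand beside the 15% of all genes that rose and 15% that fell (CAL-29) and the 18% and 17.6% of 5637 cells. Of 18 snoRNP proteins and assembly factors tested, CAL-29 cells showed 10 upregulated and 1 downregulated (median log2 fold change 0.45), and 5637 cells 5 and 3 (median 0.21), the latter close to those shares. FBL, the methyltransferase of box C/D snoRNPs, rose in both lines (0.95 ± 0.0518 SE and 0.33 ± 0.034), as did the box C/D core proteins NOP56 (0.65 and 0.30) and NOP58 (0.79 and 0.52). SNU13, the remaining core protein of box C/D snoRNPs, fell in 5637 cells (-0.41 ± 0.0426 SE) and stood at -0.18 ± 0.0597 in CAL-29 cells without passing the threshold. DKC1, the pseudouridine synthase of H/ACA snoRNPs, and NOLC1, a chaperone of snoRNPs, rose as well, with 1.14 and 0.58 for DKC1 and 1.10 and 0.57 for NOLC1. ZNHIT3, an assembly factor of box C/D snoRNPs, fell in both lines (-1.07 and -1.12).

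Of 10 NMD factors, 5 rose and 1 fell in each line, with medians of 0.36 and 0.33. UPF1, the central helicase of NMD, had log2 fold changes of 0.36 ± 0.045 (SE) and 0.74 ± 0.0316. SMG5 (0.76 and 0.90) and UPF3A (0.44 and 0.48) also rose in both lines, and SMG1, the kinase that phosphorylates UPF1, fell in both (-0.58 and -0.55). Of 6 microRNA processing genes, CAL-29 cells had 2 upregulated, 5637 cells 1, and none fell. DROSHA was the one that rose in both (0.52 ± 0.0491 SE and 0.72 ± 0.0377). Of 10 paraspeckle proteins, CAL-29 cells had 5 upregulated and 1 downregulated (median 0.29) and 5637 cells 4 and 2 (median 0.16). Among them, PSPC1 (0.95 and 0.52), RBM14 (0.61 and 0.32) and SMARCA4 (0.32 and 0.24) rose in both lines, and TARDBP fell in both (-0.71 and -0.72).

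The snoRNA hosts with a pyrimidine start were set beside those without. In CAL-29 cells 5 of the 7 with such a start rose, with a median log2 fold change of 0.85 over the 7, and 6 of the 12 without, with a median of 0.38. In 5637 cells 5 of the 7 rose, with a median of 1.55, and 8 of the 12 without, with a median of 0.88. The upregulated hosts with such a start were SNHG5, SNHG7, SNHG32 and ZFAS1 in both lines, SNHG18 in CAL-29 cells and SNHG12 in 5637 cells. With so few hosts this is a description and no test was made.

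A site for the siRNA itself was searched in the members as well. The heptamer ACATTCA, complementary to the seed (bases 2 to 8) of the siKMT9α#1 guide, was found on the transcript strand in the longest GENCODE transcript of 8 of 44 tested members (18.2%), against 20.7% of 540 tested lncRNA genes and 26.2% of 14499 tested genes of all kinds. The 8 were SNHG5, SNHG10, SNHG16, SNHG17, NEAT1, MIR100HG, MIR17HG and MIR31HG. In the shortest transcripts it was found in 0 of the 44, against 5.74% of the lncRNA genes and 7.12% of all. The heptamer CACATTC of siKMT9α#2, searched because the tables name the siRNA only as si270, was found in 10 (22.7%), against 21.9% of the lncRNA genes and 23.0% of all, and in the shortest transcript of 1 member. The part of such sites in the results was not tested.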

How the data were processed

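RNAseq was performed with 3 libraries per siRNA and cell line. The authors aligned reads to hg19 with STAR, counted them per transcript with HOMER and compared groups with edgeR. The deposited tables hold estimated counts in steps of 0.5 for 37400 transcripts of 23064 symbols, which were rounded. The deposited tables also hold the authors' own log2 fold change, p-value and its adjusted form, and these columns were not used. Each symbol was represented by the row with the most counts.

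Each line was fitted with edgeR 4.0.16 in R 4.3.3 (TMM scaling, filterByExpr, quasi-likelihood F test, Benjamini-Hochberg adjustment) on 24479348.5 to 35151256.5 counts per library. A call was an unadjusted p below 1e-06. The difference between lines (adjusted p below 0.05) and the siCtrl level (adjusted p below 0.05 and at least 2-fold) were tested over all 12 libraries. CPM are TMM-scaled within a line, and ± is the standard error. The fits were tested on simulated data. Alternatives included other scalings, DESeq2 1.42.0, filters and leaving out each library.

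Named were members called in at least 1 line and the 9 singly chosen RNAs, with values per library for the latter and for calls of at least 0.5 on the log2 scale. From the other lists, genes called in both lines were named, except for an item that is not reported here. A few further genes and members (SNU13, TP63, CDH5, DCN, CD3E, PECAM1, the genes beside H19 and HOTAIR, and single uncalled hosts) were named after their values were seen. Members and lists were chosen with earlier results of these data known. Gene spans are from GENCODE on GRCh37. Starts and microRNAs are from RefSeq on GRCh38.p14, and small RNAs were assigned to members by position without regard to strand. Starts of 19 of 22 snoRNA hosts were found. Replicate numbers of the siKMT9α#1 libraries differ between sample titles and descriptions, and titles were used.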

Additional observations from a re-analysis of the deposited data

Results flagged for a closer look

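The 22 of 44 members whose response differed between the cell lines by the interaction test, beside 50.4% of all genes, are given as the log2 fold change in 5637 cells minus that in CAL-29 cells. Among the snoRNA hosts the difference was 1.52 for SNHG1, 1.46 for SNHG12, 0.91 for SNHG7, 0.82 for SNHG5, 0.71 for ZFAS1, 0.67 for SNHG11, 0.55 for SNHG20, 0.51 for SNHG3, 0.48 for SNHG17, 0.36 for SNHG15, 0.33 for SNHG32, 0.31 for EPB41L4A-AS1, 0.25 for GAS5 and -0.72 for SNHG4. SNHG4 no longer differed, at -0.57, without 5637 siCtrl replicate 2.

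Among the microRNA hosts the difference was 1.18 for MIR4453HG, 0.93 for MIR22HG and 0.67 for MIR4458HG. MIR4453HG no longer differed, at 0.80, without 5637 siKMT9α#1 replicate 2, and MIR4458HG was lost, at 0.48 to 0.66, without siCtrl replicate 1 or 3 or siKMT9α#1 replicate 1 or 2 of 5637 cells. Among the other lncRNAs it was 1.02 for MALAT1, 0.93 for NEAT1, 0.33 for PVT1, 0.18 for UCA1 and -2.38 for H19. H19 had at most 20 counts in a library of CAL-29 cells, and its difference was not called without siKMT9α#1 replicate 2 (-0.78), siCtrl replicate 2 (-1.84) or siCtrl replicate 3 (-2.21) of that line. UCA1 lost the call, at 0.13 to 0.17, when any of 6 libraries was left out: siCtrl replicate 2 and siKMT9α#1 replicates 1 and 3 of CAL-29 cells, and siCtrl replicates 2 and 3 and siKMT9α#1 replicate 3 of 5637 cells. The lines also differed in reagent and siRNA concentration, which cannot be told apart from the line.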

How the results depend on the processing

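The median log2 fold change of the snoRNA hosts kept its direction under all 28 alternatives run in the 2 lines. At an adjusted p below 0.05 in place of p below 1e-06, 27 members were called in CAL-29 cells in place of 15, and 32 in 5637 cells in place of 18, of which 27 were upregulated. The response of 5 members differed between the lines at p below 1e-06, in place of 22, and the siCtrl level of 37 differed without the 2-fold minimum, in place of 24. Without 1 library at a time, 13 to 17 members were called in CAL-29 cells (11 to 14 upregulated), 17 to 18 in 5637 cells (16 to 17 upregulated), 20 to 24 between the lines and 22 to 24 in siCtrl level.

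Same-numbered siCtrl and siKMT9α#1 libraries deviated together (correlation over 0.1) in 1 of 3 pairs of each line, pair 1 in both (0.143 and 0.139), so the numbers were not taken to pair libraries. With the replicate block 20 members were called in CAL-29 cells, 17 in 5637 cells and 25 between the lines, and 24 differed in siCtrl level. In CAL-29 cells 15 members rose and 5 fell with the block, in place of 13 and 2. Among the calls added there were SNHG1 (0.32), SNHG12 (-0.48) and MALAT1 (-0.75), and SNHG20 was lost in 5637 cells (0.79). Of 644 values of named members in a line, 610 kept direction and call, 12 were called only under the alternative, 19 lost the call and 3 changed sign, none of them called: NEAT1 in CAL-29 cells without siKMT9α#1 replicate 1 (0.00, range 0.00 to 0.25 over all libraries left out), and H19 in 5637 cells without siCtrl replicate 2 (0.01) or siKMT9α#1 replicate 3 (0.03, range -0.07 to 0.03). Of 352 differences between the lines, 20 lost the call, among them EPB41L4A-AS1, GAS5, MIR4458HG, PVT1 and UCA1 with scaling by total counts. The causes were not tested. Few counts limit what can be said of some hosts, among them the 8 members tested in neither line.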

Other observations

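Genes of cytoplasmic ribosomal proteins were read after the values of the snoRNA hosts were seen. Their mRNAs begin with pyrimidines, a feature found here in 7 of the 19 snoRNA hosts with a RefSeq start. In CAL-29 cells 54 of 80 such genes rose at p below 1e-06 and none fell (edgeR), with a median log2 fold change of 0.47 and a range of -0.18 to 1.11, while the middle 50% of all genes lay between -0.45 and 0.33. In 5637 cells 33 of 81 rose and 4 fell, with a median of 0.17 and a range of -0.68 to 0.86, beside -0.37 to 0.28 for the middle 50% of all genes. The snoRNA hosts had higher medians, 0.82 and 1.05, and in these the value of 5637 cells was the larger one, whereas for the ribosomal protein genes that of CAL-29 cells was. That difference in order was not tested.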
